A study of Mus musculus with 12 samples.

Results

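The nuclear-encoded genes of oxidative phosphorylation were followed across 6 doses of a BRG1 degrader in mouse embryonic stem (mES) cells. Members were chosen by symbol, as the genes named for subunits of NADH dehydrogenase (Nduf), succinate dehydrogenase (Sdh), the cytochrome bc1 complex (Uqcr), cytochrome c oxidase (Cox), ATP synthase (Atp5) and for somatic cytochrome c (Cycs), with a mean of at least 1 RPKM, that is, read pairs scaled to exon length and library size. The symbol pattern matched 86 of the 24421 genes in the count table, and 80 of them passed the level minimum, among 11378 genes tested. Complex I had 35 of these 80 genes, complex II 4, complex III 8, complex IV 15 and complex V 15, and the remaining 3 were Cycs and the factors Atp5s and Atp5sl. Ndufa4 was placed in complex IV, where its protein is now assigned, and Cox7a2l, a supercomplex factor, was listed with complex IV too.

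The libraries came from mES cells derived from C57BL/6J blastocysts (strain label B6) and grown in 2i+LIF, with a dTag knocked in at Brg1. Brg1, also named Smarca4, encodes the ATPase of the mSWI/SNF chromatin remodeller, and dTAG13 recruits a ubiquitin ligase to the tagged protein so that it is degraded. The dTAG13 treatment lasted 24 h, its doses were 0, 0.3, 1, 3, 10 and 100 nM, and each dose had 2 RNA-seq libraries. The undosed cells (treatment label N/A) carried the same knock-in and, by the methods, received DMSO. All libraries used here were from this knock-in line, a single-cell-derived clone, so effects of the compound and of BRG1 loss cannot be told apart here.

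Oxidative phosphorylation takes place in the inner mitochondrial membrane. Complexes I and II pass electrons from NADH and succinate to ubiquinone, complex III passes them on to cytochrome c, complex IV reduces oxygen, and complex V uses the resulting proton gradient to make ATP. Most subunits are encoded in the nucleus and imported, and they assemble with a smaller set made from mitochondrial DNA, none of which was in the count table. Naive mES cells use both glycolysis and this pathway.

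Library totals ran from 4663484 to 6375582 counts, and the ribosomal precursor transcript Rn45s took 10.5% to 19.4% of them. The first 3 nM library had the lowest total and the lowest Rn45s share. The labels number the 0, 1, 10 and 100 nM libraries in one run of S numbers and the 0.3 and 3 nM libraries in another, which holds no 0 nM library. For the 0.3 and 3 nM doses against 0 nM, dose and run therefore cannot be told apart, and 3 nM was also compared with 0.3 nM within the run. The Smarca4 transcript, which does not report on the degraded protein, had 2128 to 2777 counts in every library. ES cell markers were expressed (Pou5f1 at 575 and Nanog at 286 RPKM on average), while all 5 markers of primitive endoderm and all 5 of fibroblasts were under 1 RPKM.

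The subunit genes were abundant in every library. Their counts summed to between 7185 and 7862 CPM (counts scaled to library size, on the scale of the tested genes), 28 of them had a mean above 100 RPKM, 49 lay between 10 and 100 RPKM, and 3 lay below 10 RPKM. Cox6c, a small membrane subunit of complex IV, was the highest at 816 RPKM, followed by Atp5b, the catalytic β subunit of ATP synthase, at 434 RPKM and Cox4i1, the ubiquitous form of COX4, at 336 RPKM. Per unit length, the median level was 55.7 RPKM in complex I, 52.7 in complex II, 143 in complex III, 122 in complex IV and 129 in complex V. Within complex I the range ran from 14.5 RPKM for Ndufv3, an accessory subunit beside the NADH-binding site, to 174 RPKM for Ndufb8, an accessory subunit of the membrane arm. Complex II was the most even, from 31.2 RPKM for Sdhc to 84.3 RPKM for Sdhd, which encode its membrane anchors. In complex III the range was from 48.1 RPKM for Uqcrc2, a core protein, to 214 RPKM for Uqcrh, the hinge protein, and in complex V from 50.9 RPKM for Atp5g2 to Atp5b.

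Where a subunit has alternative isoforms, the common form made up most of the transcript. Cox4i1 gave 98.8% to 99.9% of the summed COX4 RPKM over the 12 libraries, Cox6a1 99.4% to 100% of COX6A and Ndufa4 99.3% to 100% of the pair with Ndufa4l2. Of the heart and muscle forms, Cox6a2 and Cox8b had 0 to 2 counts per library, whereas Cox7a1 had 9 to 26 counts and made up 4.18% to 11.4% of COX7A. Cox7b2, at 0.963 RPKM, lay just outside the level minimum and Cox4i2, the lung form of COX4, just inside it at 1.86 RPKM. Ndufs5 was the only standard complex I subunit among the 6 genes left out, with 0 to 2 counts in each library over a listed exon length of 509 bases, and the reason was not tested. The c subunit of ATP synthase, which forms the membrane rotor, is encoded by 3 genes, and Atp5g3 made up 49.2% ± 0.203 (SD, n = 2) of their summed RPKM at 0 nM and 46.5% ± 1.29 (SD, n = 2) at 100 nM. Atp5g1 gave 33.1% ± 0.837 (SD, n = 2) at 0 nM, and its share in single libraries ran from 29.4% to 39.4%. Atp5g2 gave the rest.

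Promoter sequence was examined because many of these genes are known targets of the factors NRF1 and YY1. Of the 80 genes, 68 matched an entry of the RefSeq promoter table (GRCm38.p6, 250 bases before to 50 after a start), with 74 windows in all. The NRF1 core GCGCATGC, read on either strand, stood in 11 of the 74 windows (14.9%), against 2.71% of all 32851 windows in the table. The YY1 core AAGATGGCG stood in 9 windows (12.2%), against 1.40% of all windows. The ETS core CCGGAAGT stood in 6.76% of the members' windows and 3.89% of all, and the SP core GGGCGG in 40.5% and 35.7%. The NRF1 core and its reverse complement overlap where both are present, and such a pair was counted as 1 window. For illustration, windows of 30 bases on the gene's strand follow, with the matched letters in capitals, for members that carry the NRF1 core upstream of the start (Cycs, chr6:50566611-50566640, minus strand; Sdhb, chr4:140961206-140961235, plus strand; Ndufa11, chr17:56717692-56717721, plus strand) or the YY1 core just downstream of it (Ndufs7, chr10:80249463-80249492, plus strand; Ndufa9, chr6:126849096-126849125, minus strand).
Cycs: catgctagctcGCATGCGCgcgcacaaacc
Sdhb: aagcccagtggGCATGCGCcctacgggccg
Ndufa11: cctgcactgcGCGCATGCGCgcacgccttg
Ndufs7: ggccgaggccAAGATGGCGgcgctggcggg
Ndufa9: attgtgggagAAGATGGCGgccgccgtccg
None of the 19 members with an NRF1 or YY1 core in these windows passed the test at 100 nM against 0 nM (median log2 fold change -0.01, range -0.30 to 0.18), and 9 of the 49 matched members with neither did (median -0.08, range -0.57 to 0.59). Of the 8 matched members called lower there, 5 held the SP core and 0 the ETS core, beside 29 and 5 of all 68 matched members. Over all tested genes 1151 were called higher and 1511 lower of 11378, and the differences between the groups of members were not tested. These strings were searched in 300 bases only, so the counts describe those letters and do not report on binding.

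The quasi-likelihood test of edgeR was then run for each dose against 0 nM over all 11378 genes, and a gene was called at a Benjamini-Hochberg adjusted p under 0.05. At 0.3 nM none of the 80 genes was called in either direction, where 0% of all tested genes were called higher and 0.0703% lower. At 1 nM none was called either, against 0.773% of all genes higher and 1.52% lower. An unadjusted p under 0.05 was found for 7 of 80 members at 0.3 nM, against 859 of 11378 genes, and for 5 at 1 nM, against 1536 genes. DESeq2 and the likelihood ratio test called none at either dose. At 3 nM, 2 members were called lower and none higher, while 4.15% of all genes were called higher and 5.25% lower. At 10 nM, 7 members were called lower and none higher, against 7.87% higher and 10.1% lower among all genes. At 100 nM, 9 members were called lower and 1 higher, against 13.3% lower and 10.1% higher among all genes.

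As shares of the 80 genes, those called lower made up 2.5% for 3 nM, 8.75% for 10 nM and 11.2% for 100 nM, each below the share over all genes at that dose. At 100 nM this order turned under some alternatives, with 22 of 80 against 2174 of 11378 genes called lower under TMM scaling on all genes of the table, 15 against 1700 in pairwise fits and 12 against 1549 in the fit of 0, 1, 10 and 100 nM only. It turned as well without the filter on low values (11 of 80 against 1569 of 23204), and when either 3 nM or either 10 nM library was left out. At 10 nM, 4.92% of all genes were called lower by more than 1.5-fold, and among the members only Ndufv3 was. At 100 nM that share was 6.83% over all genes, and no member was both called and past 1.5-fold. Atp5s, a coupling factor gene of low level (2.93 RPKM), had a log2 fold change of 0.59 (SE 0.37, adjusted p = 0.27), and Cox7a1 had the lowest fitted value at 10 nM, -1.15 (SE 0.43, adjusted p = 0.065). The median log2 fold change of the 80 genes was 0.01 for 0.3 nM, 0.00 for 1 nM, -0.06 for 3 nM, -0.09 for 10 nM and -0.06 for 100 nM. The median of all tested genes lay between -0.0014 and 0.0050. At 100 nM the 95% interval of 71 of the 80 members lay wholly within 1.5-fold of no change, as did that of 6107 of the 11378 tested genes. These shares were not matched for level, on which interval width depends, and only 3 of the members lay below 10 RPKM. In the test over all 6 doses together, 8 members were called, or 10% of them, against 21.4% of all genes.

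**Figure D1:**
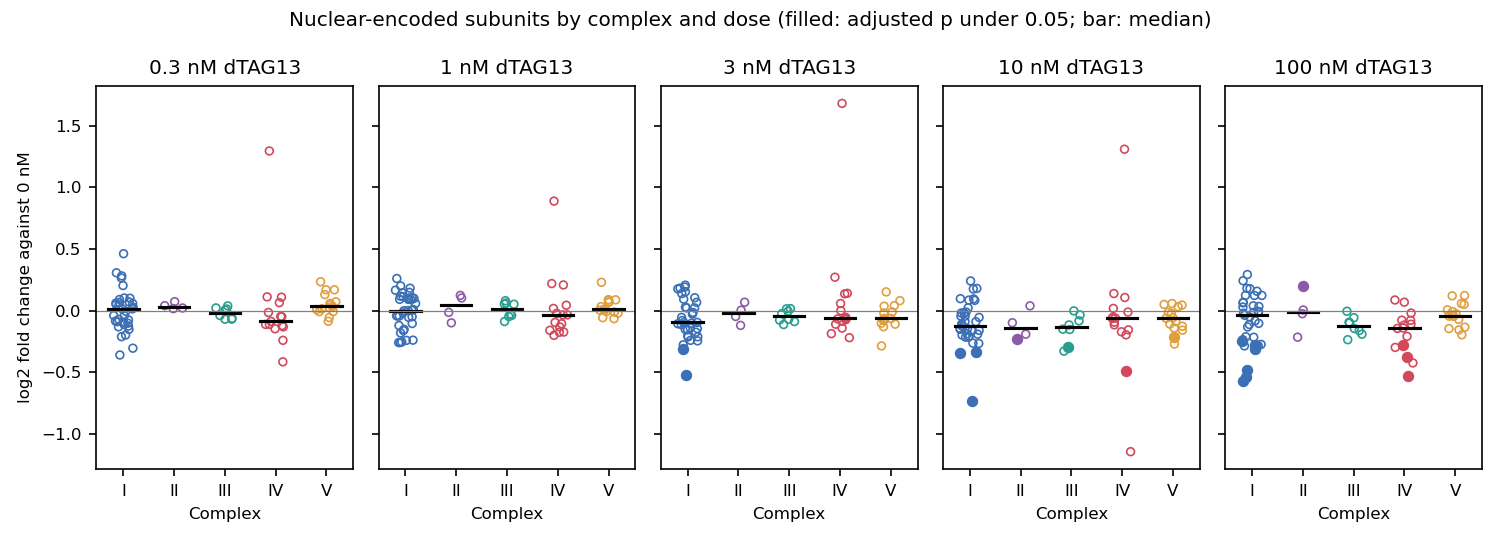
Fitted log2 fold change against 0 nM (y axis) of each subunit gene, by complex (x axis), with 1 panel per dTAG13 dose. Filled points passed an adjusted p of 0.05, open points did not, and bars are medians. No point is filled at 0.3 and 1 nM, and the lone high open points of complex IV at 0.3 to 10 nM are Cox4i2, which had a mean of 1.86 RPKM.

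Many of these calls were lost with 1 library left out. The dose concerned then had 1 library, so such a loss does not show that the library left out carried the call. At 100 nM the calls over all tested genes fell as well when a 0 or 100 nM library was left out. Leaving out the second 0 nM library reduced the calls at 100 nM from 10 to 5 and those at 10 nM from 7 to 2, and leaving out the first or the second 100 nM library left 4 or 6 at 100 nM. The calls at 3 nM ran from 0 to 3 with 1 library left out. Cox6c, Cox6b1 and Ndufb4 passed at 100 nM under all 23 alternatives that kept the call rule, and none of them under the 1.5-fold minimum. Scaling on all 24421 genes, which moved the median of the tested genes at 100 nM to -0.08, gave 22 members lower and none higher. Under that scaling the calls over all genes were 802 higher and 2174 lower, against 1151 and 1511 here, or 27.0% and 43.2% of the calls higher.

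Complex I, which oxidises NADH, had 6 of its 35 genes lower at 100 nM and none higher, with a median of -0.04, beside 13.3% of all genes called lower. The count was 2 without the second 0 nM or the first 100 nM library, 3 in DESeq2 and without the second 100 nM library, and 10 under the scaling on all genes. Ndufb4 (mm10, chr16:37647602-37654368, minus strand), an accessory subunit of the membrane arm, had 136 and 131 RPKM in the 0 nM libraries, 132 and 121 with 0.3 nM, 118 and 104 with 1 nM, 129 and 102 with 3 nM, 103 and 132 with 10 nM, and 84.4 and 95.1 with 100 nM. Its 100 nM libraries lay below all others, at 67.4% of the 0 nM level (log2 fold change -0.57, SE 0.12, adjusted p = 0.0010), whereas the 10 nM libraries spanned almost the whole range of the other doses (-0.19, SE 0.12, adjusted p = 0.32). Of the distinct words of 75 bases (the read length) in the Ndufb4 transcripts, 35.2% also stood in transcripts of other genes. These were chiefly the processed pseudogene Ndufb4c, and read pairs mapping to both would not have been counted.

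Ndufv3 and Ndufb11 were the members called at the lowest dose, 3 nM. At that dose Ndufv3 passed under 17 of 22 alternatives and Ndufb11 under 12. Both 3 nM calls were lost in DESeq2 and without normalization factors, and that of Ndufb11 in pairwise fits as well. Ndufv3 (chr17:31520115-31531325, plus strand) had 17.6 and 20.2 RPKM in the 0 nM libraries, 14.3 to 16.6 in the 0.3 and 1 nM libraries, 13.1 and 13.2 in those of 3 nM, 10.3 and 12.5 in those of 10 nM, and 14.8 and 11.2 in those of 100 nM. All 10 treated libraries lay below both 0 nM libraries. It fell to 69.7% of the 0 nM level at 3 nM (-0.52, SE 0.15, adjusted p = 0.027), to 60.2% at 10 nM (-0.73, SE 0.15, adjusted p = 0.00098) and to 68.7% at 100 nM (-0.54, SE 0.15, adjusted p = 0.0081). Within the run of 0.3 and 3 nM libraries the difference was -0.16 (SE 0.16, adjusted p = 0.65), and the 100 nM call was lost without the second 0 nM or the second 100 nM library. The 120 bases before its start (chr17:31519995-31520114, plus strand) are shown because Ndufv3 had the largest fall among the members called, and they hold none of the NRF1, YY1 or ETS cores on either strand.
Ndufv3: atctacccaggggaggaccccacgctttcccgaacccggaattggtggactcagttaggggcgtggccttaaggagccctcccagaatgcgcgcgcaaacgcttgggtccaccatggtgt

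The other flavoprotein subunits, Ndufv1, which binds NADH and FMN, and Ndufv2, which holds an iron-sulfur cluster, were core subunits that also fell at 100 nM. Ndufv2 had 64.6 and 66.9 RPKM at 0 nM and 53.4 and 57.4 at 100 nM, or 84.3% of the 0 nM level (-0.25, SE 0.08, adjusted p = 0.024). Ndufv1 had 56.6 and 63.9 RPKM at 0 nM and 48.8 and 50.7 at 100 nM, or 82.5% (-0.28, SE 0.10, adjusted p = 0.040). Both calls were lost, among other settings, in DESeq2 and without the second 0 nM or the first 100 nM library. Ndufs1, the iron-sulfur core subunit that sits beside them in the same arm, was not called (0.06, SE 0.08, adjusted p = 0.64), with 32.4 and 31.5 RPKM at 0 nM and 34.2 and 32.6 at 100 nM. These 3 genes were named after their values were seen.

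Ndufa5 (chr6:24518666-24527687, minus strand), an accessory subunit of the hydrophilic arm, had 79.8 and 82.1 RPKM in the 0 nM libraries, 60.4 and 66.9 with 10 nM, and 56.3 and 59.4 with 100 nM, and 9 of the 10 treated libraries lay below both controls. It fell to 71.5% of the 0 nM level at 100 nM (-0.48, SE 0.12, adjusted p = 0.0038), a call that was lost without the first 100 nM library (adjusted p = 0.051) and under the 1.5-fold minimum. Ndufb11 (chrX:20615326-20617564, minus strand), an X-linked accessory subunit of the membrane arm, had 90.2 and 105 RPKM in the 0 nM libraries, 78.2 and 79.1 with 3 nM, 72.0 and 82.7 with 10 nM, and 78.1 and 79.0 with 100 nM. It was called lower at 3, 10 and 100 nM (log2 fold changes -0.31, -0.33 and -0.31). All 3 of these calls were lost in DESeq2, without normalization factors and without the second 0 nM library, which held the highest Ndufb11 level. The call at 10 nM was also lost without the first 10 nM library, and that at 100 nM without either 100 nM library. Ndufb8, the most abundant complex I transcript, was not called (181 and 198 RPKM at 0 nM, 157 and 165 at 100 nM; adjusted p = 0.067).

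**Figure D2:**
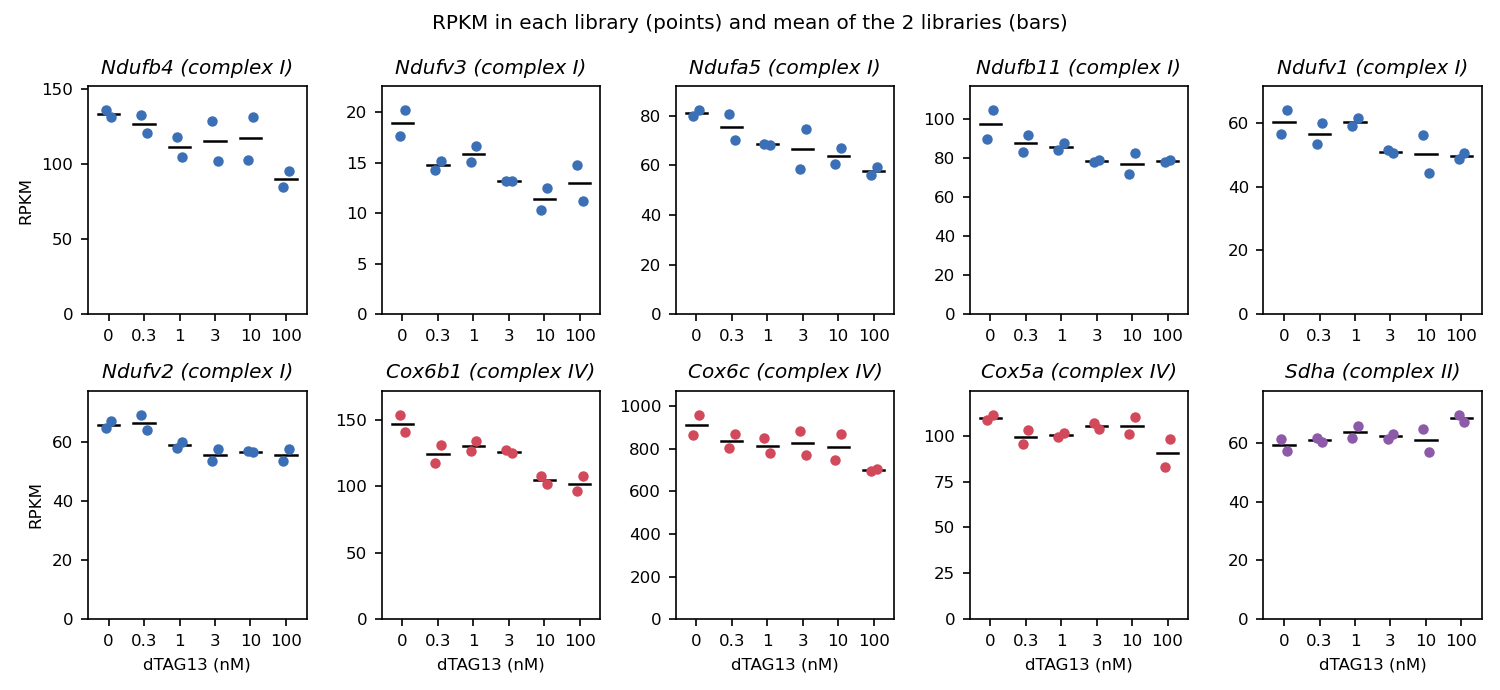
RPKM (y axis, from 0) in each library (points) against dTAG13 dose in nM (x axis, doses evenly spaced) for the 10 genes called at 100 nM, with bars at the mean of the 2 libraries. In each panel the 100 nM points do not overlap the 0 nM points, and only in the Sdha panel are they the higher ones.

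Complex II feeds electrons from succinate and is the only one of the complexes made wholly from nuclear genes. Sdha (chr13:74322255-74350240, minus strand), its flavoprotein, was the single member called higher, with 61.4 and 57.4 RPKM in the 0 nM libraries, 64.9 and 57.1 with 10 nM, and 69.4 and 67.2 with 100 nM. Its 100 nM libraries were the highest of the 12 (log2 fold change 0.20, SE 0.07, adjusted p = 0.040), and the call was lost under 8 of 23 alternatives, among them DESeq2, the likelihood ratio test, the scaling on all genes and the removal of any 1 of the 0 or 100 nM libraries. The iron-sulfur subunit gene Sdhb differed by 0.00 (SE 0.10), and the anchor gene Sdhc had 38.2 and 28.1 RPKM at 0 nM, and its values at 100 nM (27.8 and 29.2) overlapped them. Sdhd was called lower at 10 nM (77.6 and 71.0 RPKM, against 85.2 and 89.0 at 0 nM; -0.23, SE 0.08, adjusted p = 0.037) but not at 100 nM (82.8 and 88.4 RPKM; -0.03, SE 0.08). Its call at 10 nM was lost under 8 of 23 alternatives, among them DESeq2, the likelihood ratio test, pairwise fits and the removal of either 0 nM library or the second 10 nM library (adjusted p up to 0.25).

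Complex III had all 8 fitted values below 0 at 10 nM and at 100 nM, with medians of -0.13 and -0.12. Over all 11378 tested genes, 5592 lay below 0 at 10 nM and 5684 at 100 nM. Under upper quartile or no factors 7 of the 8 lay below 0 at 100 nM, and 6 without the first or the second 0 nM library. No member of complex III was called at 100 nM by edgeR or DESeq2. An unadjusted p under 0.05 was found there for 2 of the 8, against 3929 of all tested genes. The median of complex III lay between -0.20 and -0.07 over the 23 alternatives, and 3 of the 8 were called lower under the scaling on all genes. Uqcrq, a small subunit that packs against cytochrome b, was called at 10 nM only. It had 206 and 208 RPKM at 0 nM and 175 and 162 at 10 nM (-0.30, SE 0.08, adjusted p = 0.0090). At 100 nM it had 183 and 186 (-0.16, SE 0.08, adjusted p = 0.14). Its call at 10 nM was lost without normalization factors, and without the second 0 nM or the second 10 nM library. For Uqcrh, 230 and 210 RPKM at 0 nM stood beside 215 and 207 at 100 nM (-0.06, SE 0.09). Uqcrc2 had 47.8 and 52.3 RPKM at 0 nM and 45.2 and 48.3 at 100 nM (-0.10, SE 0.08). Cycs, the mobile carrier between complexes III and IV, had 31.7 and 27.4 RPKM at 0 nM and 32.9 and 31.5 at 100 nM, and the 95% interval of its log2 fold change ran from -0.06 to 0.31. Words from 26.1% of the Cycs transcripts were shared with other genes.

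Complex IV, the terminal oxidase, had the lowest median at 100 nM (-0.14), with 13 of 15 genes below 0 and 3 of them called. Over all 11378 tested genes, 5684 lay below 0 and 13.3% were called lower. The complex IV count of calls was 2 in DESeq2, without normalization factors and after removal of the length trend. It fell as well without the second 0 nM or the first 100 nM library. Under the scaling on all genes it was 6, with a median of -0.22. Cox6b1 (chr7:30616974-30626151, minus strand), an intermembrane-space subunit that joins the monomers of the oxidase, had 153 and 140 RPKM in the 0 nM libraries, 118 and 131 with 0.3 nM, 126 and 134 with 1 nM, 127 and 125 with 3 nM, 107 and 102 with 10 nM, and 96.1 and 107 with 100 nM. All 10 treated libraries lay below both controls, and the 10 and 100 nM libraries lay below all libraries of the lower doses. It fell to 71.2% of the 0 nM level at 10 nM (-0.49, SE 0.09, adjusted p = 0.00048) and to 69.3% at 100 nM (-0.53, SE 0.09, adjusted p = 0.00013), and had the smallest p of any member in the test over all doses (adjusted p = 0.00074). Both calls held under all 23 alternatives that kept the call rule, though neither fall reached 1.5-fold. Between 3 and 0.3 nM no difference was called (0.02, SE 0.10, adjusted p = 0.94).

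Cox6c (chr15:35931976-35938246, minus strand), the most abundant member, had 863 and 958 RPKM at 0 nM, between 746 and 882 at 0.3 to 10 nM, and 695 and 704 at 100 nM. The 100 nM libraries were the lowest of the 12, at 76.8% of the 0 nM level (-0.38, SE 0.07, adjusted p = 0.00036). Cox5a, a matrix-side subunit that carries no metal centre, had 109 and 111 RPKM at 0 nM and 82.9 and 98.3 at 100 nM (-0.28, SE 0.09, adjusted p = 0.030), and its call was lost without either 0 nM library or the first 100 nM library. Cox6b2, the testis form of COX6B, was not called (20.2 and 21.5 RPKM at 0 nM, 18.9 and 20.5 at 100 nM), and the Cox6b1 share of the COX6B pair was 87.6% ± 1.15 (SD, n = 2) at 0 nM and 83.7% ± 0.290 (SD, n = 2) at 100 nM.

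Among the other complex IV genes, Cox4i2 showed how little low counts could resolve, with 0.469 to 4.16 RPKM over the 12 libraries and a 95% interval at 100 nM from -1.79 to 1.75. Ndufa4 had 191 and 162 RPKM at 0 nM and 147 and 180 at 100 nM (-0.11, SE 0.10), and its libraries overlapped. For Cox7a2l the values were 33.0 and 39.5 RPKM at 0 nM against 38.9 and 37.2 at 100 nM (0.07, SE 0.11). The summed transcript of complex IV was 1638 ± 55.1 CPM (SD, n = 2) at 0 nM, 1538 ± 45.4 at 0.3 nM and 1415 ± 24.5 at 100 nM, or 86.4% of 0 nM. Without Cox6c the sum at 100 nM was still 90.1% of that at 0 nM. At 0.3 nM it was already 93.9%, in the other run of libraries.

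**Figure D3:**
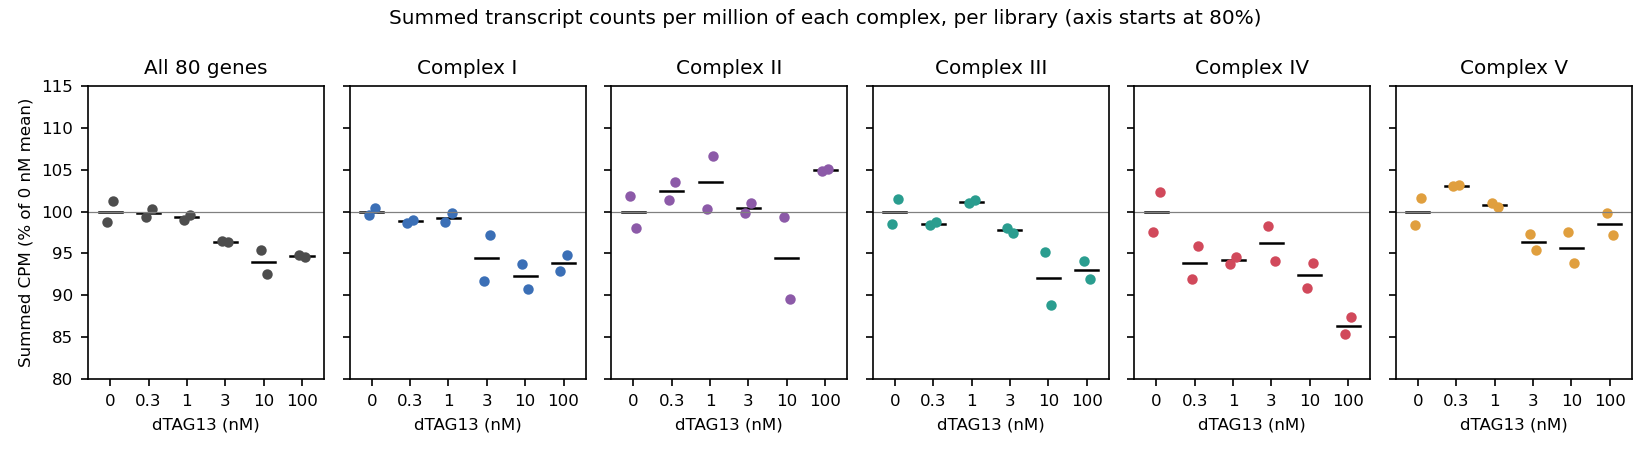
Summed CPM of all 80 genes and of each complex per library (points), as percent of the 0 nM mean (y axis, drawn from 80%), against dTAG13 dose in nM (x axis, doses evenly spaced), with bars at the mean of the 2 libraries. At 100 nM complex IV lies at 86.4%, complex II at 105% and complex V at 98.5% of 0 nM.

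Complex V, the ATP synthase, had 2 genes at an unadjusted p under 0.05 at 100 nM, against 3929 of the 11378 tested genes. None of its 15 genes was called there by edgeR or DESeq2, with a median of -0.04 and all 15 intervals within 1.5-fold. Under the scaling on all genes 3 were called lower (median -0.12), and pairwise fits called 1 higher and 1 lower. Atp5b had 441 and 446 RPKM at 0 nM and 432 and 412 at 100 nM, with a 95% interval from -0.18 to 0.04. Its partner in the catalytic head, Atp5a1, had 261 and 266 RPKM at 0 nM and 289 and 285 at 100 nM (0.12, SE 0.05, adjusted p = 0.080). Atp5c1, the central shaft, was called at 10 nM (157 and 143 RPKM, against 168 and 180 at 0 nM, -0.21, SE 0.06, adjusted p = 0.019). That call was lost without normalization factors, in pairwise fits, and without the second 0 nM library or the second 10 nM library. Of the c subunit genes, Atp5g3 was called in the test over all doses (adjusted p = 0.042), with 129 and 144 RPKM in the 0 nM libraries, 159 and 149 with 0.3 nM, 112 and 141 with 3 nM, and 118 and 121 with 100 nM. Its highest level, at 0.3 nM, came from the other run of libraries, and neither it nor Atp5g1 (-0.04, SE 0.11) and Atp5g2 (-0.03, SE 0.12) was called at 100 nM. Atp5l had the largest share of its words in common with other genes, 76.0%, while 42 of the 79 members found in GENCODE M21 shared none.

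**Figure D4:**
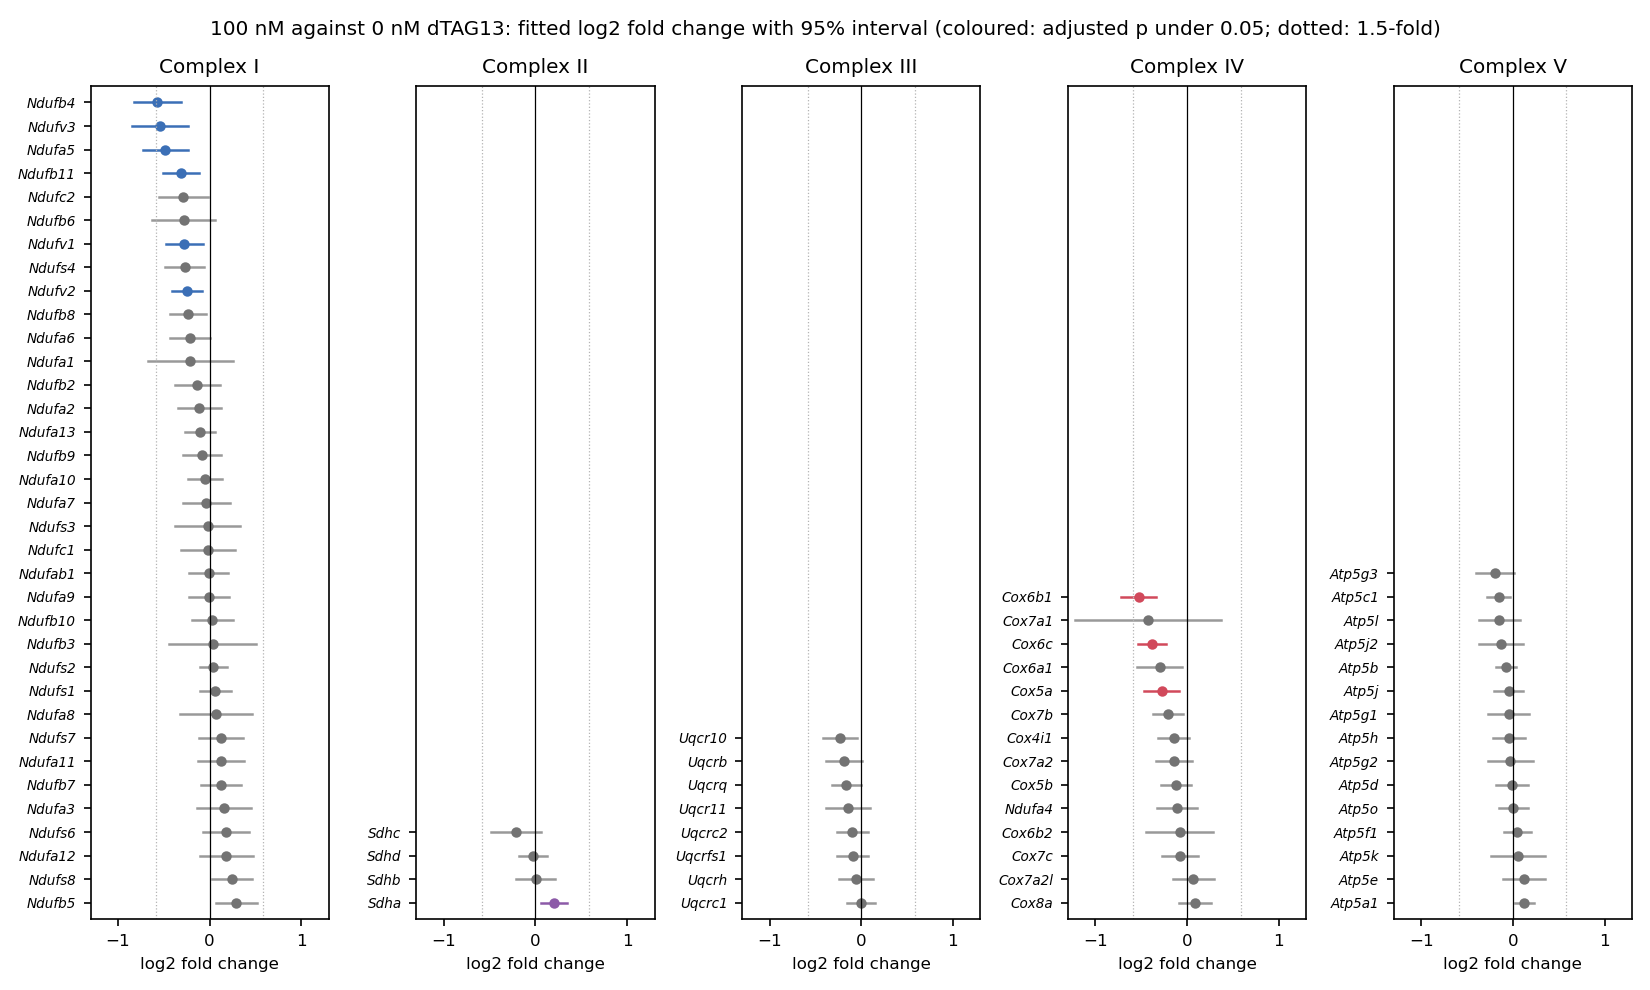
Fitted log2 fold change at 100 nM against 0 nM (x axis, points) with its 95% interval (lines) for each gene of complexes I to V, sorted within a complex. Colour marks an adjusted p under 0.05 and dotted lines mark 1.5-fold; Cox4i2, whose interval runs from -1.79 to 1.75, is left out of the drawing. The 10 coloured genes are 6 in complex I, Sdha in complex II and 3 in complex IV.

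Between 3 and 0.3 nM, within one run of libraries, edgeR called no member, where 2.43% of all genes were called higher and 2.88% lower. DESeq2 called none too, and 7 members had an unadjusted p under 0.05, against 2126 of the 11378 tested genes. The members' median was -0.05, with 73 of 80 intervals within 1.5-fold. By complex the medians were -0.10 in I, -0.07 in II, -0.01 in III, 0.06 in IV and -0.12 in V. Ndufv2 came nearest to a call, with 68.9 and 64.0 RPKM at 0.3 nM and 53.3 and 57.5 at 3 nM (-0.26, SE 0.08, adjusted p = 0.057). For the summed transcript of all 80 genes, 7767 ± 134 CPM (SD, n = 2) without dTAG13 stood beside 7751 ± 52.9 with 0.3 nM, 7714 ± 36.1 with 1 nM, 7489 ± 4.70 with 3 nM, 7297 ± 159 with 10 nM and 7355 ± 15.1 with 100 nM, or 94.7% of 0 nM at the highest dose.

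Other gene lists of the mitochondrion give the setting. Of 47 tested assembly factors, which help build the complexes, 4 were called higher at 100 nM and none lower (Ndufaf7, Ecsit, Sdhaf2 and Sco1, by 0.35 to 0.58), with a median of 0.09, beside 10.1% of all genes called higher, while 1 was called higher in DESeq2, under the scaling on all genes and without the first 0 nM, the second 0 nM or the second 100 nM library, and 2 without the first 100 nM library. Without the second 0 nM library 1 was also called lower. At an unadjusted p under 0.05, 5 assembly factors passed, against 3929 of the 11378 tested genes. Of 9 tested subunits and carriers whose symbols lay outside the pattern, 3 were called lower, beside 13.3% of all genes, and 5 lay below 0. The 3 called were Cyc1, the cytochrome c1 of complex III, at -0.27 (SE 0.08, adjusted p = 0.016), and Etfa and Etfb. Etfa and Etfb, which bring electrons from fatty acid oxidation, had -0.59 (SE 0.13, adjusted p = 0.0011) and -0.42 (SE 0.13, adjusted p = 0.016). Etfdh, also on this list, was not called (0.22, SE 0.16). The count called lower was 2 in DESeq2 and without normalization factors. It fell as well without either 0 nM library or the first 100 nM library.

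The TCA cycle and pyruvate dehydrogenase supply the chain with NADH and succinate. Of their 23 tested genes, 7 were called lower at 100 nM and 1 higher, with a median of -0.20, beside 13.3% lower and 10.1% higher over all genes, and between 4 (without the second 0 nM or the second 100 nM library) and 14 (scaling on all genes) were called lower over the alternatives. Whether this list differed from the subunit genes was not tested. Pdha1 and Pdhb, the subunits of the first enzyme of the pyruvate dehydrogenase complex, fell by 0.65 (SE 0.07, adjusted p = 3.9e-08) and 0.78 (SE 0.09, adjusted p = 4.6e-07) on the log2 scale. Pdhb had 45.1 and 44.0 RPKM in the 0 nM libraries, 39.2 and 37.1 with 3 nM, 34.9 and 35.4 with 10 nM, and 25.7 and 26.1 with 100 nM. Pdk1, a kinase that inhibits the complex, had 15.8 and 17.3 RPKM at 0 nM and 26.5 and 22.7 at 100 nM (0.57, SE 0.10, adjusted p = 9.0e-05). The phosphatase gene Pdp2, whose product reactivates the complex, had -0.71 (SE 0.10, adjusted p = 6.2e-06). Not called were the kinase gene Pdk3 (mean 28.4 RPKM, -0.01, SE 0.12) and the phosphatase gene Pdp1 (mean 1.00 RPKM, 0.17, SE 0.33). Dlat (-0.19, SE 0.09), Dld (0.03, SE 0.08) and Pdhx (-0.07, SE 0.11) of the complex were not called either. Among the other genes called lower were Idh3b, Idh2 and Suclg1 of the cycle, at -0.27 to -0.34.

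**Figure D5:**
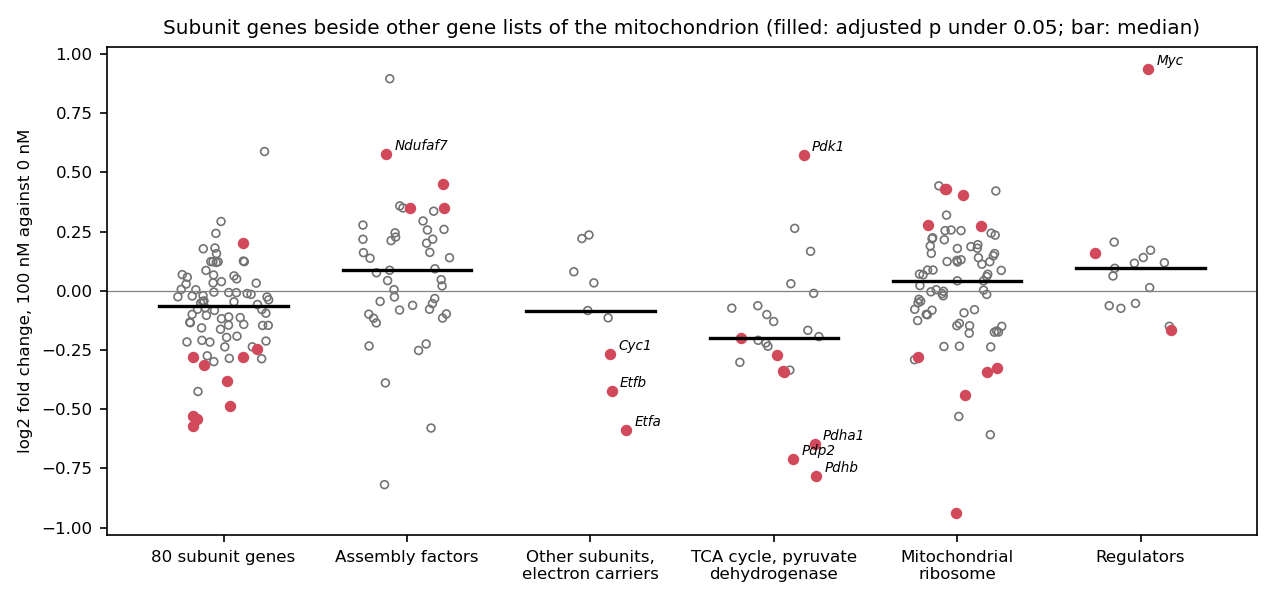
Fitted log2 fold change at 100 nM against 0 nM (y axis) of the 80 subunit genes and of 5 other gene lists (x axis), with filled points past an adjusted p of 0.05 and bars at the medians. The bar of the TCA cycle and pyruvate dehydrogenase list lies at -0.20 and that of the subunit genes at -0.06.

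At 100 nM 10.1% of all tested genes were called higher and 13.3% lower, which stands beside the lists that follow. Among 77 mitochondrial ribosomal protein genes, 5 were called higher and 5 lower, with a median of 0.04 that was -0.04 under the scaling on all genes. DESeq2 called none of them, and without 1 of the 0 or 100 nM libraries 1 to 3 were called higher and 0 to 3 lower. Of 15 tested regulators of mitochondrial genes, the coactivator gene Pprc1 and Myc were called higher, at 0.16 and 0.94, and Esrrb lower, at -0.17. The likelihood ratio test and DESeq2 each called 1 regulator higher and 0 lower. Nrf1 (0.21, SE 0.09, adjusted p = 0.098), Yy1 (-0.07, SE 0.09) and Tfam, the packaging and transcription factor of mitochondrial DNA (0.10, SE 0.09), were not called. Markers of the ES cell state moved at the same dose, with 2 of 8 called higher and 4 lower. The likelihood ratio test and DESeq2 each called 2 of these markers higher and 2 lower. Of the trophoblast markers Cdx2 and Eomes were called higher, Cdx2 from a low level (mean 1.58 RPKM). The third tested trophoblast marker, Gata3, had -1.23 (SE 0.52, adjusted p = 0.092), and Elf5 and Krt7 were under 1 RPKM. Over the alternatives 1 to 2 trophoblast markers were called higher and 0 to 1 lower. Of the 2-cell-like markers only Zscan4d passed the level minimum, at 1.26 RPKM, and it was not called. The part of such a shift in cell state in the values above was not tested, and in bulk RNA fewer cells of a type and less RNA per cell cannot be told apart.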

How the data were processed

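Raw counts per gene were deposited by the authors as a single table of 12 libraries. According to the labels, the study's methods and the table's header, paired 75-base reads from SMART-Seq Stranded total RNA libraries were trimmed with Trim Galore, aligned to mm10 with HISAT2 and counted over exons with featureCounts 2.0.1, without use of strand, leaving out multi-mapped pairs and pairs over more than 1 gene. Members, gene lists and tests were chosen with earlier results of these data known.

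Genes at or above a mean RPKM of 1 were fitted in edgeR 4.0.16 (R 4.3.3) with TMM factors over the tested genes, all 12 libraries in 1 quasi-likelihood model by dose, and Benjamini-Hochberg adjustment over all 11378 genes. The common biological coefficient of variation was 6.20%. RPKM and CPM use the same library scale and the deposited exon lengths. The scripts were tested on simulated data. The study describes the libraries of a dose as independent experiments, and the fits measure the spread between them only. Coordinates are those of mm10 and of RefSeq (GRCm38.p6). Genes named with values were those called and past 1.5-fold at any dose, the 6 largest changes each way at 100 nM among genes called, the highest and lowest of each complex, Cycs, the c subunit genes, Ndufa4, Cox7a2l and the 3 smallest p over all doses, and other genes were named after their values were seen. Word sharing was counted over exact 75-base words of GENCODE M21 transcripts on both strands. Words that differ by 1 letter are missed, and transcripts on the opposite strand are included, so the shares do not bound the ambiguity of counting.

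Alternatives were the likelihood ratio test, DESeq2 1.42.0 (test and size factors), upper quartile or no factors, removal of a length trend, no filter, pairwise fits, a fit without 0.3 and 3 nM, a replicate block, a 1.5-fold minimum, each library left out and, chosen after seeing the data, TMM over all genes of the table.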

Additional observations from a re-analysis of the deposited data

How the results depend on the processing

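The absence of calls at 0.3 and 1 nM held under every alternative. For the other counts of members called, DESeq2 gave 0 at 3 nM, 4 at 10 nM, 5 at 100 nM and 4 over all doses. Without normalization factors the counts were 0 at 3 nM, 2 at 10 nM and 2 over all doses, and the median at 100 nM was -0.023. TMM over all genes of the table gave 13 at 10 nM, 22 at 100 nM, 4 at 3 against 0.3 nM and 14 over all doses, with medians of -0.15 at 100 nM and -0.10 at 3 against 0.3 nM. Pairwise fits gave 1 at 3 nM and 18 at 100 nM, the removal of the length trend gave 1 at 3 against 0.3 nM, and a 1.5-fold minimum left 0 at 3 nM, 1 at 10 nM and 0 at 100 nM. With 1 library left out the counts ran from 0 to 3 at 3 nM, 2 to 10 at 10 nM, 4 to 14 at 100 nM, 0 to 1 at 3 against 0.3 nM and 2 to 16 over all doses, and the medians from -0.08 to -0.05 at 100 nM and from -0.06 to -0.03 at 3 against 0.3 nM. The lowest count at 10 nM came without the second 0 nM library, and the highest over all doses (16) without the first 10 nM library. Over all doses, 5 were called without the first 0 nM or the second 1 nM library, 2 without the second 0 nM or the first 100 nM library and 3 without the second 100 nM library. No called member changed direction. Same-numbered libraries did not deviate together (correlations of -0.09 to 0.09), and the replicate block gave 12 at 100 nM and 9 over all doses and moved no count by over 1.5 times. The causes of these changes were not tested. Depth limited the low members, as for Cox4i2 with an SE of 0.86 at 100 nM.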
